A study of Mus musculus with 8 samples.

Results

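The wild-type prefrontal cortex of young mice is described here from 3 poly(A) RNA libraries, replicates 1, 2 and 3, out of 8 in the series. They were chosen by their genotype label alone. The study asked about social deficits of mice that carry a Shank3 copy without exon 21 (Shank3+/ΔC) and about their treatment, and the other 5 libraries, from those mice, are not used here. Per the labels the mice were wild type and 5 to 6 weeks of age. Per the series' design text they were male littermates of the heterozygous mice, matched for age at 5 to 8 weeks, and the tissue was prefrontal cortical slices. No treatment is named for them. No label ties a library to its own animal, so the spread between libraries may be technical.

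The prefrontal cortex holds glutamatergic pyramidal neurons, which send the long-range output, and GABAergic interneurons, which inhibit locally. Astrocytes clear glutamate and potassium, oligodendrocytes wrap axons in myelin, and microglia are the resident immune cells. Fast excitation runs through AMPA and NMDA receptors and fast inhibition through GABA-A receptors, each assembled from subunits encoded by separate genes.

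The libraries held 12046120, 13280615 and 12460217 reads counted on genes. Within a gene, levels are given as CPM, the counts scaled to a total of 1000000 per library. Between genes they are given per length, as TPM, the counts divided by the summed exon length of each gene in GENCODE M21 and scaled to the same total. Values of the 3 libraries follow the order of replicates 1, 2 and 3, and means are ± SD (n = 3). Of 24421 genes in the tables, 18498 had a read in at least 1 library. A gene is taken as detected here at 1 CPM or more in every library, and 13750 genes were. Of these, 9850 reached 10 CPM in every library, 2227 reached 100 CPM and 71 reached 1000 CPM. Protein-coding genes took 97.8%, 97.8% and 97.6% of the counts, and long noncoding genes took 1.26%, 1.42% and 1.55%. The transcriptome was spread over many genes: the 100 genes with most counts took 15.3%, 15.1% and 15.4% of all counts, and 50% of the counts lay on 1125 genes.

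**Figure D1:**
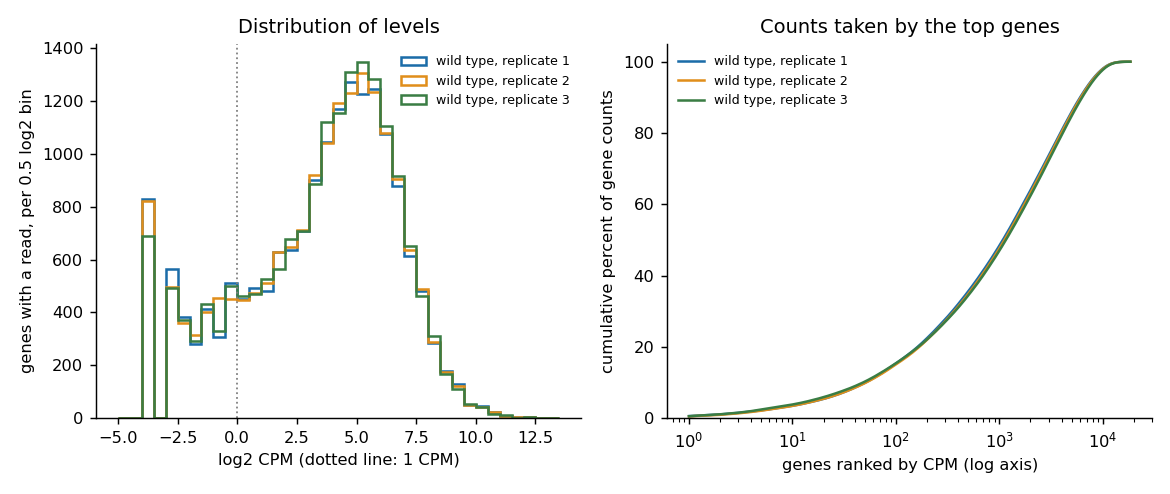
Left, number of genes with a read against log2 CPM in bins of 0.5, with the 1 CPM line dotted. Right, cumulative percent of gene counts against genes ranked by CPM on a log axis. The 3 wild-type libraries, 1 line each, nearly overlie each other, and in each the 100 top genes take about 15.3% of the counts.

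Genes of the presynaptic terminal, of calcium signalling and of energy supply led the levels per length. Snap25, a SNARE protein of synaptic vesicle fusion (chr2:136713453-136782428, plus strand, GRCm38), had the highest mean of the 24028 genes with a length, at 4385, 4212 and 3038 TPM. Its level was lowest in replicate 3. Cpe, which trims peptide hormone precursors, followed at 3479, 3497 and 4481 TPM and was highest in replicate 3. The 2 genes overlap in range, so their order is not fixed by these libraries. The calmodulin genes Calm2 and Calm3, which encode the calcium sensor that activates calmodulin kinases, had 4052, 3867 and 3099 TPM and 2397, 2136 and 2001 TPM. The kinase gene Camk2a, a major postsynaptic protein of pyramidal neurons, had 2705, 2614 and 3132 TPM. The kinase inhibitor Camk2n1 averaged 1825 ± 75.1 TPM. Nrgn, which binds calmodulin in dendrites, averaged 2604 ± 304 TPM.

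Among the 30 leading genes, those on the astrocyte marker list used below, Sparcl1, Glul and Apoe, were all highest in replicate 3. Cst3, a secreted protease inhibitor that is not on that list, was also highest there, at 2805, 2897 and 4008 TPM. The matrix protein gene Sparcl1 had 2619.6, 2606 and 2979 TPM. Glul, the glutamine synthetase that recycles transmitter glutamate, had 1881, 2101 and 2567 TPM. For the lipid carrier Apoe the values were 1940.1, 1855 and 2691 TPM. In each of these genes replicate 3 stood above both other libraries. Some energy genes in the group ran the other way. The glycolytic enzyme genes Aldoa and Pkm had 3106, 2730.0 and 2309.8 TPM and 1843, 1679 and 1488 TPM, each lowest in replicate 3. Atp5b of the mitochondrial ATP synthase averaged 1727 ± 129 TPM, Cox8a of cytochrome oxidase 2171 ± 97.6 TPM and Ckb, the brain creatine kinase, 2686 ± 79.1 TPM.

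Among the remaining leaders, Hspa8 and Hsp90ab1, constitutive chaperones, averaged 3182 ± 199.6 TPM and 2114 ± 35 TPM. The translation factor gene Eef1a1 averaged 3027 ± 108 TPM, and Rplp1, of the ribosomal stalk, 2027 ± 172 TPM. Fth1, the ferritin heavy chain for iron storage, averaged 2733 ± 136 TPM. Psap, a lysosomal saposin precursor, averaged 1928 ± 76.2 TPM, the selenoprotein gene Sepw1 1863 ± 42.5 TPM and cytoplasmic actin Actg1 1668 ± 61.3 TPM. The axonal motor gene Kif5a averaged 2317 ± 221 TPM and the sodium pump subunit gene Atp1b1 1798 ± 163 TPM. Slc17a7, the vesicular glutamate transporter of cortical pyramidal neurons, averaged 1731 ± 200.2 TPM, the vesicle protein gene Syp 1695 ± 194 TPM and the 14-3-3 adaptor gene Ywhah 1719.9 ± 196 TPM.

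By share of counts, which favours long transcripts, the leaders changed. Kif5a took most counts of any gene in the mean, at 4461, 4873 and 5354 CPM, followed by Camk2a at 4663, 4449 and 5352 CPM. The ribosomal RNA precursor Rn45s, which is not polyadenylated like messenger RNA, had 5597, 4116 and 4475 CPM and was highest in replicate 1. Slc1a2, the main glutamate transporter of astrocytes, had 3435, 3438 and 4478 CPM. The noncoding RNA Meg3 and Snhg11, which is listed here with such RNAs, averaged 3747 ± 776 CPM and 2247 ± 461 CPM. Replicate 1 was lowest for both. The annotation used classes Snhg11 as protein-coding, so its counts are not in the long noncoding share given above. Hpcal4, a neuronal calcium sensor, averaged 2131 ± 144 CPM. The 100 genes with the highest TPM had a median exon length of 2108.5 bases, against 4259 bases for the 100 with the highest CPM and 3455 bases for all detected genes with a length. The 2 sets of 100 shared 55 genes.

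Families were gathered by symbol pattern or by list, and their levels summed. Cytosolic ribosomal protein genes took the largest part of the summed TPM among the 36 families examined, 4.13%, 4.02% and 4.68%, and 79 of 85 were detected. The family was highest in replicate 3. It did not lead by share of counts, where it took a mean of 1.24%. Solute carrier genes took 2.21% of counts, vesicle release genes 1.79% and genes with RIKEN clone symbols 1.65%. The order below is by TPM within the ribosomal protein family. Rplp1, Rps29, Rps15 and Rps21 led it with means of 2027, 1525, 1399 and 1216 TPM. Nuclear-encoded subunits and assembly factors of oxidative phosphorylation took 3.21%, 3.11% and 3.09%, and 88 of 94 were detected, led by Cox8a, Atp5b, Cox4i1 (1496 TPM) and Cox6a1 (1444 TPM). No mitochondrially encoded gene was in the tables. Many ribosomal protein, Eef1a1, Gapdh and tubulin genes have near-identical copies in the genome, and reads aligning to several places were not counted, so the levels of these families are uncertain.

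Messenger RNAs for ribosomal proteins and elongation factors are known to begin with a run of pyrimidines, the terminal oligopyrimidine tract, through which their translation follows nutrient signalling. The starts of the family are shown because it took the largest share of the summed level of any family examined. RefSeq start regions (GRCm38.p6) were found for 59 of the 79 detected genes of the family, with 70 starts. A run of at least 8 bases, each C or T, read on the transcribed strand and lying over the start base, was present at 22.9% of those starts, against 3.86% of all 32851 starts of the same length. The search and its threshold were chosen after the levels were seen. The 5 genes with the highest TPM among those with such a run, and Eef1a1, are printed from 20 bases before the start, with the start base as the 21st base and the run in capitals. Cst3, the gene with the highest mean TPM that has an entry and no such run, is added for contrast.
Rps6 (863 TPM, chr4:86857348-86857387, minus strand): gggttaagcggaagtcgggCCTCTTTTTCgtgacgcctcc
Rps18 (743 TPM, chr17:33955646-33955685, minus strand): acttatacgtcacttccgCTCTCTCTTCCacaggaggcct
Rpl38 (665 TPM, chr11:114668560-114668599, plus strand): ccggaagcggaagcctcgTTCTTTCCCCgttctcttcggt
Rpl7a (629.6 TPM, chr2:26910787-26910826, plus strand): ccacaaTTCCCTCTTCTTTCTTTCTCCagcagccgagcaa
Rpl27a (584 TPM, chr7:109519175-109519214, plus strand): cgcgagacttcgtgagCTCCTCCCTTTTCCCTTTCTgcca
Eef1a1 (3027 TPM, chr9:78481705-78481744, minus strand): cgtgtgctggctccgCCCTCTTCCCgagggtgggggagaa
Cst3 (3237 TPM, chr2:148875493-148875532, minus strand): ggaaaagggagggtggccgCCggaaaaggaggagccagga
The runs printed for the 6 translation genes were 10 to 21 bases long, and that of Cst3 was 2 bases. The annotated start decides whether a run is met, so a start without one says only that these letters are not over that base.

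Genes known only by RIKEN clone symbols, which share a naming scheme and no function, took 1.78%, 1.78% and 1.8% over 1928 symbols, of which 586 were detected. The 23 genes of vesicle release, all detected, took 1.91%, 1.81% and 1.52% of the summed TPM and were lowest in replicate 3. After Snap25 and Syp, the vesicle SNARE Vamp2 averaged 1218 ± 106 TPM and the calcium sensor of release Syt1 1098 ± 164 TPM. The 16 glycolysis genes took 1.61%, 1.49% and 1.35%, in the same order of libraries, with Gapdh at 1653 ± 165 TPM and the neuronal enolase Eno2 at 1174 ± 132 TPM after Aldoa and Pkm. Translation factors took 1.34%, 1.33% and 1.32%, with Eef1a1, Eef1a2 (1397 TPM), Eef2 (1313 TPM) and Eif1 (756 TPM) in front. Of 373 solute carrier genes 255 were detected, and together they took 1.72%, 1.72% and 1.73%. Slc17a7, Slc1a2, the mitochondrial ADP/ATP carrier Slc25a4 (885 TPM) and Slc22a17 (821 TPM) led them.

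**Figure D2:**
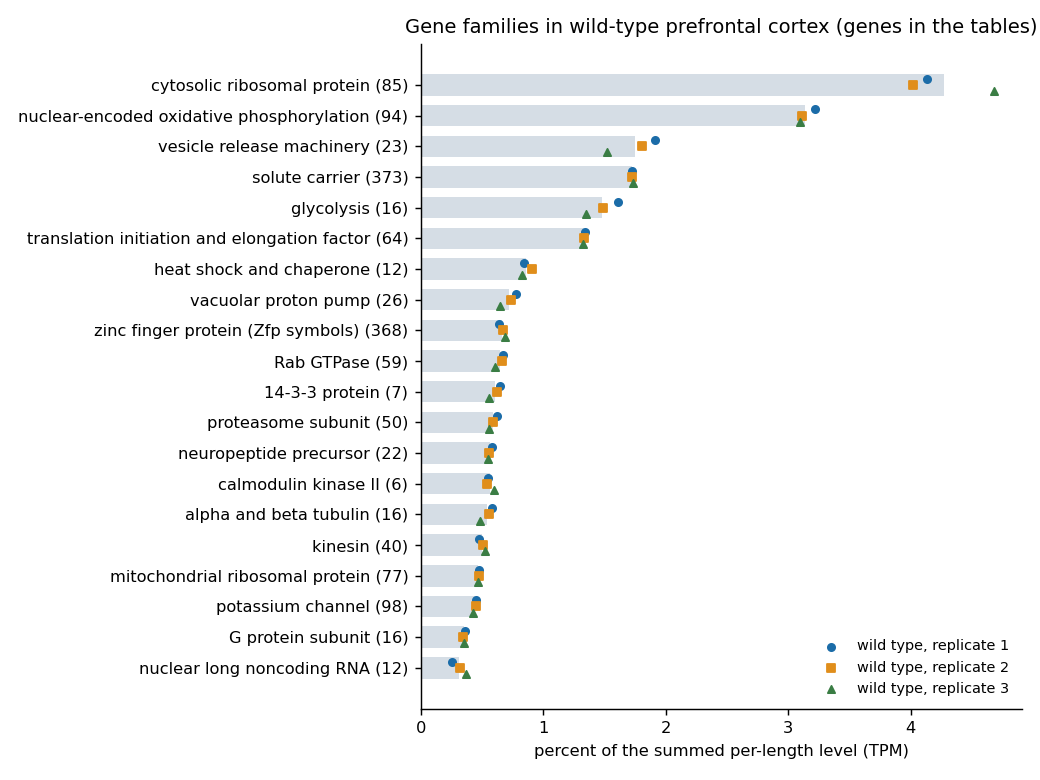
Percent of the summed per-length level (TPM) taken by each of 20 gene families in wild-type prefrontal cortex; bars are means of 3 libraries, points the single libraries, and numbers in brackets the genes of the family in the tables. Clone-named, predicted and short RNA genes and a few others are not drawn. Ribosomal protein genes lead at 4.13%, 4.02% and 4.68%, and vesicle release and glycolysis genes are lowest in replicate 3.

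Ion channel genes took smaller parts of the summed TPM, with a mean of 0.440% for potassium channels. Of 98 potassium channel genes 76 were detected, among them the accessory subunit genes Kcnab2 at 367 TPM and Kcnmb4 at 226 TPM and the pore gene Kcnh3 at 181 TPM. Among 14 sodium channel genes, 11 were detected. The accessory gene Scn2b averaged 205 TPM, and the pore genes Scn2a1 and Scn8a 128 and 108 TPM. Calcium channel genes were led by the beta subunit genes Cacnb3 (375 TPM) and Cacnb1 (137 TPM), with 22 of 26 detected.

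The 15 postsynaptic scaffold genes, which anchor glutamate receptors, were all detected, with medians of 131, 134 and 131 TPM. Dlgap3 averaged 367 ± 33.1 TPM, Shank1 257 ± 26.7 TPM, Dlg4, which encodes PSD-95, 249 ± 12 TPM and Dlg2 243 ± 19.3 TPM. Shank3 (chr15:89499623-89560261, plus strand), the gene altered in the other libraries of the study, had 127, 134 and 155 TPM in wild-type cortex, or 295, 308 and 357 CPM. By mean TPM it had rank 1564 among the genes with a length. Shank2 averaged 80.7 ± 4.996 TPM, so the order of the family was Shank1, Shank3, Shank2 in every library.

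NMDA receptors need the obligatory subunit GluN1, encoded by Grin1, with GluN2 or GluN3 subunits that set kinetics and modulation. Grin1 (chr2:25291181-25319187, minus strand) had 410.1, 378 and 346 TPM, was highest in replicate 1, and made up 76.9% ± 3.6% of the summed level of the 7 genes. Of the GluN2 genes, Grin2c had 40.3, 41.7 and 61.1 TPM, Grin2b 12.9, 11.4 and 13.5 TPM, Grin2a 12, 11 and 9.06 TPM and Grin2d 8.73, 9.2 and 12.1 TPM. The neighbours Grin2b, Grin2a and Grin2d overlapped. The GluN3 genes Grin3a and Grin3b averaged 28 ± 1.71 TPM and 3.93 ± 0.628 TPM. The split within GluN2 rested on the length used, because the annotated exons of Grin2a and Grin2b sum to 14967 and 24787 bases, most of it outside the coding sequence. Grin2c held 58.4% ± 4.79% of the GluN2 level by exon length, but 34.3% by coding length, where Grin2b led with 37.6%. With the transcripts linked to RefSeq, whose Grin2a exons sum to 4395 bases, Grin2a held 33.6% and Grin2b 11.8%. No order of Grin2a, Grin2b and Grin2c is therefore read from these counts.

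By exon length, AMPA receptor genes were expressed at similar levels except Gria4. Gria1 (chr11:57011387-57330244, plus strand) had 244, 226 and 253 TPM, Gria2, whose subunit limits calcium entry, 219, 228 and 214 TPM and Gria3 213, 211 and 201 TPM. Gria4 had 64.1, 66.6 and 66.2 TPM, below the other genes in every library and by every length. Gria1 and Gria2 overlapped, with Gria2 at 29.6%, 31.2% and 29.1% of the summed level. By coding length Gria2 came first with 44.4%, against 26.2% for Gria1. All 12 auxiliary subunit genes were detected. Cnih2, a cornichon that slows AMPA receptor gating, led them by every length at 460.4, 463 and 608 TPM, and was highest in replicate 3. Cnih3 averaged 109 TPM. The TARP genes, for transmembrane regulators of AMPA receptors, were Cacng7 (119 TPM), Cacng3 (105 TPM), Cacng8 (70.5 TPM), Cacng2 (36.5 TPM), Cacng4 (10.9 TPM) and Cacng5 (5.67 TPM). Shisa7, Shisa9 and Shisa6 averaged 109, 62.5 and 29 TPM and Gsg1l 85.1 TPM.

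Among kainate receptors, Grik5, a subunit that needs a partner from Grik1 to Grik3, had 211, 212 and 231 TPM and took 66.5% ± 2.89% of the subunit level. It was first by every length, followed by Grik3 at 70.9, 65.6 and 52.9 TPM. Grik4, Grik2 and Grik1 averaged 17.5, 17.5 and 11.6 TPM, and the auxiliary genes Neto2 and Neto1 44.3 and 31.9 TPM. The delta receptor gene Grid1 averaged 32.6 ± 0.480 TPM. Of the metabotropic glutamate receptor genes, 7 of 8 were detected and Grm6, known from retinal bipolar cells, had no read. Grm3, abundant in astrocytes, had 109, 111 and 129.9 TPM and Grm5 89.7, 92.3 and 99.998 TPM, and their order turned with coding length, where Grm5 held 36.1% and Grm3 23% of the level. Grm7, Grm2, Grm8 and Grm4 averaged 42, 36.4, 21.9 and 12.3 TPM.

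GABA-A receptors mostly join alpha, beta and gamma subunits, with delta in place of gamma outside synapses. Of the alpha genes, Gabra3 had 169, 161 and 135 TPM and Gabra4 98.8, 88.9 and 79.956 TPM. Gabra3 stood above Gabra4 in every library and by every length, and both were lowest in replicate 3. Gabra5 and Gabra2 averaged 65.2 ± 10.8 TPM and 45.3 ± 3.2 TPM. Gabra6, typical of cerebellar granule cells, had no read. Gabrb2, at 265, 280.1 and 214 TPM, stood above Gabrb1 (6.35, 6.87 and 7.93 TPM), again in every library and by every length. The gamma genes Gabrg1 and Gabrg3 averaged 23.7 ± 6.26 TPM and 2.004 ± 0.167 TPM, and Gabrg1 was highest in replicate 3. Gabrd, the delta gene, had 90.1, 98.7 and 99.1 TPM; its level was lowest in replicate 1. In all, 12 of 19 GABA-A genes were detected. The GABA-B subunit genes Gabbr1 and Gabbr2, which work as a pair, had 369.8, 360.2 and 341 TPM and 204, 198 and 160.2 TPM, and their auxiliary genes Kctd12, Kctd16 and Kctd8 averaged 57.1, 20.5 and 5.71 TPM. Of the glycine receptor genes, Glrb, the anchoring beta subunit, averaged 236 ± 26.7 TPM, Glra2 18 ± 0.972 TPM and Glra3 2.35 ± 1.19 TPM.

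**Figure D3:**
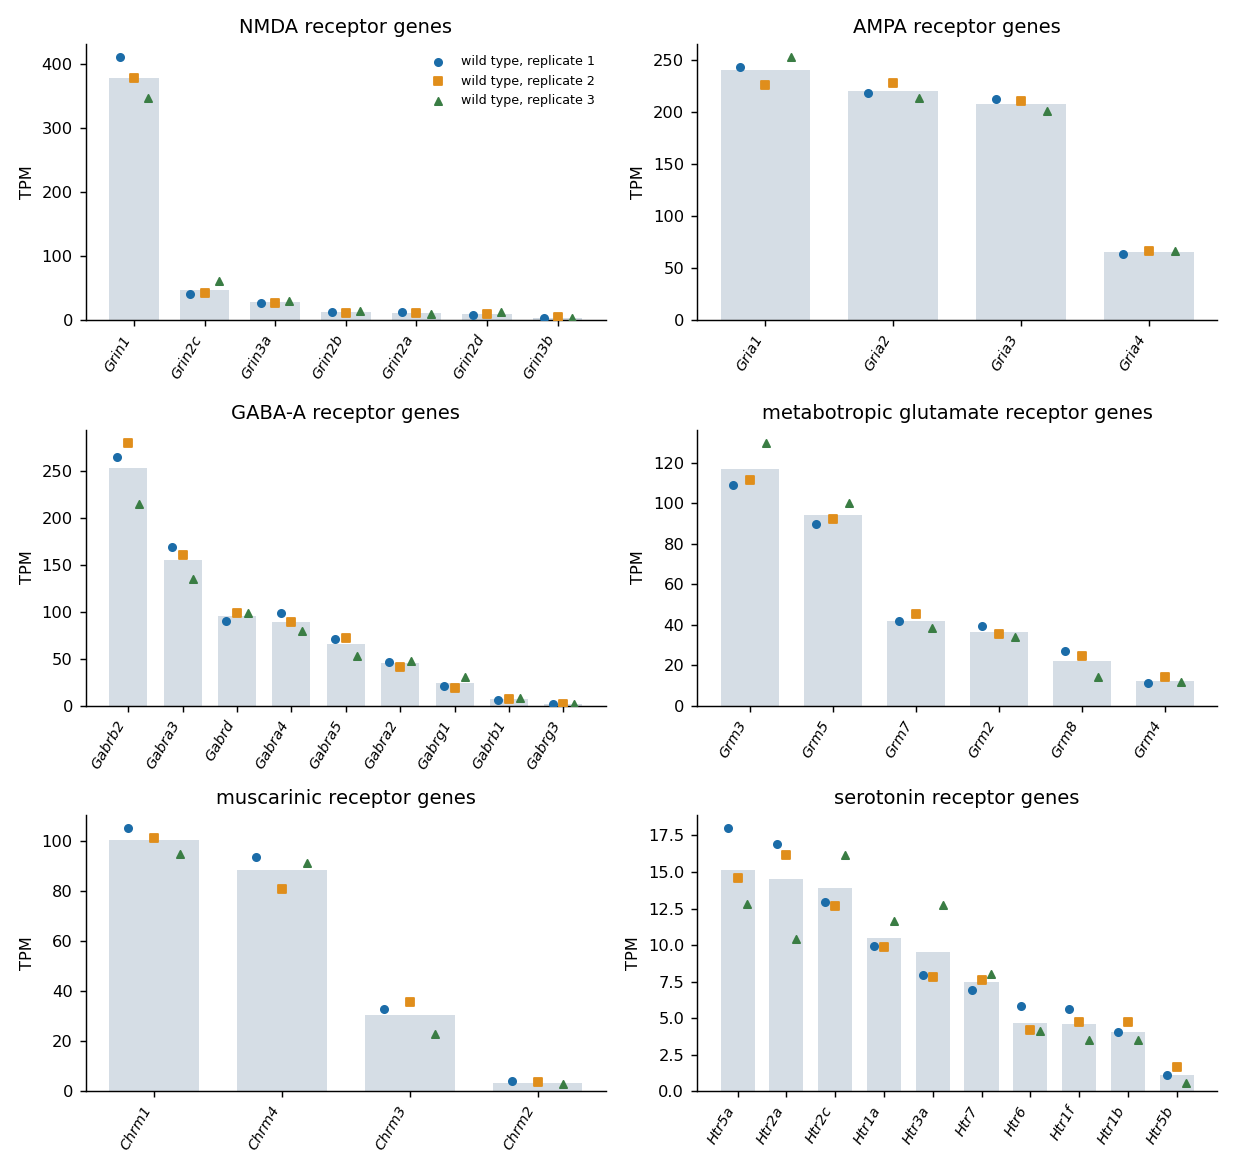
Level in TPM of the reported receptor genes with a mean of at least 1 TPM, for NMDA, AMPA, GABA-A, metabotropic glutamate, muscarinic and serotonin receptors; bars are means of 3 wild-type libraries and points the single libraries. Grin1 stands far above the other NMDA receptor genes, Gria1, Gria2 and Gria3 lie close together, and Gabrb2 is lowest in replicate 3.

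Acetylcholine reaches the cortex from the basal forebrain. Of the muscarinic receptor genes, Chrm1 had 105, 101 and 94.8 TPM and was first in every library and by every length, with 45% ± 0.561% of the level by exon length and 72% by coding length. Chrm4, Chrm3 and Chrm2 averaged 88.6 ± 6.94 TPM, 30.5 ± 6.7 TPM and 3.48 ± 0.550 TPM, and Chrm5 was not detected. The level of Chrm4 rested on the length used. Chrm4 held 39.8% of the muscarinic level by exon length but 14.05% by coding length, where Chrm3 held 11.7%. As a share of counts, with no length, Chrm4 took 14.08% and Chrm3 14.45%, so their order turned. The nicotinic genes Chrna4 and Chrnb2, which together form the main high-affinity nicotine receptor of brain, averaged 29.8 ± 5.35 TPM and 23.5 ± 1.99 TPM and overlapped. Chrna7, of the homomeric receptor, averaged 16.8 ± 0.820 TPM, and Chrna5, Chrnb1 and Chrna1 4.66, 2.44 and 1.135 TPM.

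The dopamine and serotonin receptor genes summed to means of 20.3 and 87.4 TPM. For NMDA, AMPA and GABA-A receptor genes the sums were 491, 735 and 1265 TPM. Single genes did not all follow these sums, as Drd1 averaged 14.3 TPM and Grin2b 12.6 TPM by exon length. Drd1, the Gs-coupled dopamine receptor of deep-layer and striatal neurons, had 16.8, 13.2 and 12.9 TPM. Its relative Drd5 had 5.45, 3.97 and 3.2 TPM and Drd2 0.856, 0.885 and 2.51 TPM, Drd4 was under 1 TPM and Drd3 had no read. Only 2 of the 5 dopamine receptor genes, Drd1 and Drd5, were detected. The Drd1 to Drd2 ratio of TPM was 19.7, 15 and 5.16, and the low value in replicate 3 came with a Drd2 level above that of both other libraries. Since Drd2 did not reach the detection minimum, this ratio rests on few reads and its difference between libraries is uncertain. Of 14 serotonin receptor genes 9 were detected. Htr5a, Htr2a and Htr2c averaged 15.1 ± 2.63 TPM, 14.5 ± 3.55 TPM and 13.9 ± 1.93 TPM, with overlapping neighbours. Htr2a, the excitatory receptor of pyramidal neurons, was lowest in replicate 3. Htr1a, Htr3a, Htr7, Htr6, Htr1f, Htr1b and Htr5b averaged 10.5, 9.52, 7.51, 4.69, 4.62, 4.08 and 1.12 TPM.

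Several adrenergic receptor genes differed between libraries. Adra1d had 79.1, 82.3 and 43.4 TPM and Adra1b 38.4, 43.8 and 21.3 TPM, both with replicate 3 well under the other libraries. Adra2a, the Gi-coupled receptor that guanfacine acts on, ran the other way with 6.71, 6.63 and 12.4 TPM. Adrb1 averaged 33.3 ± 1.83 TPM, Adra2c 19.7 ± 1.91 TPM, and Adra1a and Adrb3 7.9 and 2.57 TPM. The histamine receptor gene Hrh3, a presynaptic brake, averaged 115 ± 10.4 TPM, Hrh1 21.3 ± 1.39 TPM and Hrh2 3.5 ± 0.585 TPM, and Hrh4 had no read.

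Of the modulatory receptors, the adenosine receptor gene Adora1 averaged 158 ± 12.4 TPM and the cannabinoid receptor gene Cnr1 111 ± 4.14 TPM, at 98.4% ± 0.0587% of the summed Cnr1 and Cnr2 level. The microglial ADP receptor gene P2ry12 averaged 60.7 ± 12.8 TPM, and P2rx4, Adora2b, P2rx7, Adora2a and P2ry1 14.8, 8.21, 6.7, 4.19 and 1.34 TPM. The opioid family ran in the order Oprl1 (44.8 TPM), Oprd1 (25.2 TPM), Oprk1 (8.04 TPM) and Oprm1 (1.38 TPM) in every library and by every length. Ntsr2, the astrocytic neurotensin receptor gene, had 163, 167 and 244 TPM and was highest in replicate 3. Adcyap1r1, for the peptide PACAP, averaged 121 ± 14.2 TPM and Cckbr, the brain cholecystokinin receptor, 104 ± 6.91 TPM. The 4 somatostatin receptor genes over 1 TPM were Sstr1 (61.5 TPM), Sstr4 (44.5 TPM), Sstr2 (37.7 TPM) and Sstr3 (28.5 TPM). Crhr1, for stress peptides, averaged 36.4 ± 3.98 TPM, Vipr1 30.4 ± 1.29 TPM, Npy1r 26.3 ± 2.34 TPM and the oxytocin receptor gene Oxtr 8.66 ± 1.79 TPM. Ntsr1, Npy5r, Npy2r, Hcrtr1, Mc4r, Hcrtr2 and Tacr1 averaged 8.28, 5.63, 5.13, 4.8, 3.24, 2.45 and 2.33 TPM. In all, 18 of 25 neuropeptide receptor genes were detected.

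Nuclear and growth factor receptors completed the set. The thyroid hormone receptor gene Thra averaged 705 ± 77.6 TPM, over Thrb at 43 ± 6.8 TPM in every library. The glucocorticoid receptor gene Nr3c1 had 60.8, 61.3 and 61.1 TPM and the mineralocorticoid receptor gene Nr3c2 11.9, 11.9 and 13.1 TPM. Rxrb, Rxra and Rxrg, partners of many nuclear receptors, averaged 76.1, 23.7 and 9.99 TPM, Pgr 21.3 TPM and Esr1 2.19 TPM. Ntrk2, the receptor of brain-derived neurotrophic factor, averaged 181 ± 13.9 TPM and Ntrk3 13.6 ± 0.232 TPM. Fgfr3, Fgfr1 and Fgfr2 averaged 104 ± 21.2 TPM, 45.9 ± 8.11 TPM and 32.6 ± 6.58 TPM. The insulin family receptor genes Igf1r and Insr averaged 25.1 and 23.9 TPM, Kit 23.3 TPM, and Erbb4, the neuregulin receptor of interneurons, 7.88 TPM. Erbb3, Egfr, Met, Erbb2 and Ngfr averaged 6.7, 5.39, 4.2, 1.19 and 1.02 TPM. Of 184 receptor genes listed, 144 were detected and 8 had no read in any library.

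The labels give the cell type as neurons, and the markers showed a whole tissue with neurons, glia and vessels. Of 322 cell class and region markers 257 were detected. In bulk tissue, fewer cells of a class and less RNA per cell cannot be told apart, so the levels are not cell shares. The 17 pan-neuronal markers were all detected, with medians of 682, 660.4 and 578 TPM. The 22 astrocyte markers in the tables were all detected too, with medians of 204, 216 and 254 TPM. For comparison, the median of all detected genes was 27.8 TPM. Excitatory neuron markers had medians of 153, 155 and 119.6 TPM, with 14 of 14 detected, led by Camk2a, Nrgn, Slc17a7 and the synaptic pentraxin gene Nptx1 (332 TPM). Inhibitory neuron markers had medians of 18.3, 18.5 and 19.8 TPM, with 17 of 17 detected. Among them were the GABA synthesis genes Gad1 (237 ± 11.7 TPM) and Gad2 (101 ± 4.57 TPM) and the vesicular transporter gene Slc32a1 (85.4 ± 6.53 TPM).

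Vesicular transporters separate the glutamate neurons of cortex from those of thalamus and brainstem. Slc17a7, the cortical form, stood at 275, 202 and 212 times the TPM of Slc17a6, the subcortical form, and 22.7, 21.7 and 16.8 times that of Slc32a1. Among interneuron subclass genes, Cck, which pyramidal neurons also make, had 1148, 1077 and 938 TPM and the somatostatin gene Sst 929, 905 and 1013 TPM. Npy averaged 408 ± 24.8 TPM, and the 4th highest, Lamp5, 243 ± 46.1 TPM. Sst stood at 8.16, 6.77 and 9.89 times the level of the parvalbumin gene Pvalb and 8.99, 8.8 and 9.09 times that of Vip. These are ratios of RNA, and the peptide genes can make far more RNA per cell.

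Markers of all cortical layers were present, with those of layer 4 lowest. Layer 2/3 markers had medians of 53.6, 53.9 and 62.7 TPM and were led by Lamp5, Enpp2 (210.2 TPM), Rasgrf2 (107 TPM) and Wfs1 (93.5 TPM). Layer 5 markers had medians of 27.1, 30.8 and 29.5 TPM, with Pcp4 at 823 ± 124 TPM, Crym at 219 ± 38.3 TPM, Ldb2 at 99.3 ± 16.2 TPM and the subcerebral fate factor Fezf2 at 51.6 ± 8.27 TPM. For layer 6 the medians were 13.9, 14.8 and 12.3 TPM, with Rprm (117 TPM), Hs3st4 (77.4 TPM), Tle4 (47.9 TPM) and Ctgf (28.3 TPM) leading. Layer 4 markers had medians of 4.54, 4.74 and 4.07 TPM and 4 of 6 were detected. Whrn and Rorb averaged 26.5 ± 3.4 TPM and 10.6 ± 2.12 TPM, and the sensory layer 4 gene Scnn1a had 0.664, 0.828 and 1.85 CPM. Rodent medial prefrontal cortex is known to lack a distinct layer 4.

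Astrocyte, oligodendrocyte and microglia lists had medians above the 27.8 TPM of all detected genes. Oligodendrocyte precursor, endothelial, mural, meningeal fibroblast and border macrophage lists had medians under it. Astrocyte markers were led by Sparcl1, Glul, Apoe and the chaperone Clu (1283 ± 257 TPM). Among 21 oligodendrocyte markers, all detected, the myelin protein gene Mbp had 537, 889 and 892 TPM. Cnp and Car2 averaged 417 ± 82.9 TPM and 320.2 ± 50.6 TPM. Replicate 1 was the lowest library for each of these 3 genes. The 11 oligodendrocyte precursor markers, all detected, were led by Bcas1 (127 TPM), Gpr17 (72.8 TPM), Sox8 (52.6 TPM) and the growth factor receptor gene Pdgfra (29.4 TPM). Microglia markers, 20 of 20 detected with medians of 43.6, 49.3 and 60.9 TPM, included the complement gene C1qb at 159 ± 31.7 TPM, the protease gene Ctss at 154 ± 23.8 TPM and C1qa at 146 ± 32.6 TPM. The endothelial list had medians of 17.8, 19.8 and 23.2 TPM, led by the glucose transporter gene Slc2a1 (104 TPM), Itm2a (102 TPM), the tight junction gene Cldn5 (79 TPM) and Egfl7 (40.5 TPM). The mural list had medians of 7.08, 9.47 and 10.044 TPM, led by Vtn (102 TPM), the pericyte gene Rgs5 (38.2 TPM), the contractile gene Tagln (16 TPM) and the growth factor receptor gene Pdgfrb (13.4 TPM). Meningeal fibroblast markers had medians of 7.12, 5.27 and 9.01 TPM, with 12 of 13 detected, led by Igf2 (33.6 TPM), Islr (15.3 TPM), Dcn (14.3 TPM) and Slc6a13 (13.7 TPM). Border macrophage markers had 4 of 8 detected, led by Stab1 at 10.4 ± 2.71 TPM and Mrc1 at 3.64 ± 0.890 TPM.

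Lists of other brain regions had medians under the 27.8 TPM of all detected genes, as had layer 4 and layer 6 markers. The list medians averaged 15.4 TPM for striatal, 6.36 TPM for cerebellar and 6.07 TPM for thalamic markers. Those of layer 6 and layer 4 averaged 13.7 and 4.45 TPM. Choroid plexus markers were at or near the floor, with 1 of 8 detected and Ttr at 2, 2 and 1 reads. Hypothalamic and brainstem lists had 1 of 9 and 2 of 9 detected, and Oxt had no read. Cerebellar markers had 6 of 8 detected, of which Car8, Neurod1, Zic1 and Zic2 averaged 20.5, 11.4, 8.91 and 14.2 TPM, and Gabra6 had no read. Olfactory bulb markers had 3 of 8 detected, led by Doc2g at 7.61, 5.96 and 13.6 TPM and Cdhr1 at 3.65, 2.08 and 9.88 TPM, each highest in replicate 3. Of the ependymal list 3 of 7 were detected, led by Rarres2 at 24.6 ± 2.01 TPM, and of the thalamic list 6 of 8, led by Rgs16 at 12.9 ± 4.53 TPM. Markers of dividing and newborn cells had 6 of 9 detected, led by the tubulin gene Tubb2b at 123 ± 19 TPM and the migration gene Dcx at 14.5 ± 3.06 TPM. Of the striatal list 10 of 14 were detected, with medians of 15.9, 13.9 and 16.4 TPM. It was led by Ppp1r1b at 109, 88.9 and 74.1 TPM, which cortical neurons also express. The striatal transcription factor genes Isl1 and Six3 had at most 2 reads in a library. Whether RNA of this list came from cortical or striatal cells was not tested. Of 11 blood cell markers none was detected, and 9 of 10 globin symbols had no read. Reads that align to several places or overlap 2 genes were not counted, so the globin zeros are no measure of blood. Likewise Snrpn, a neuronal gene that overlaps Snurf, had 0.498, 0.226 and 0.803 CPM. The Y-linked genes Eif2s3y, Ddx3y, Kdm5d and Uty were detected in every library and Xist had 0, 2 and 3 reads, in mice labelled male.

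**Figure D4:**
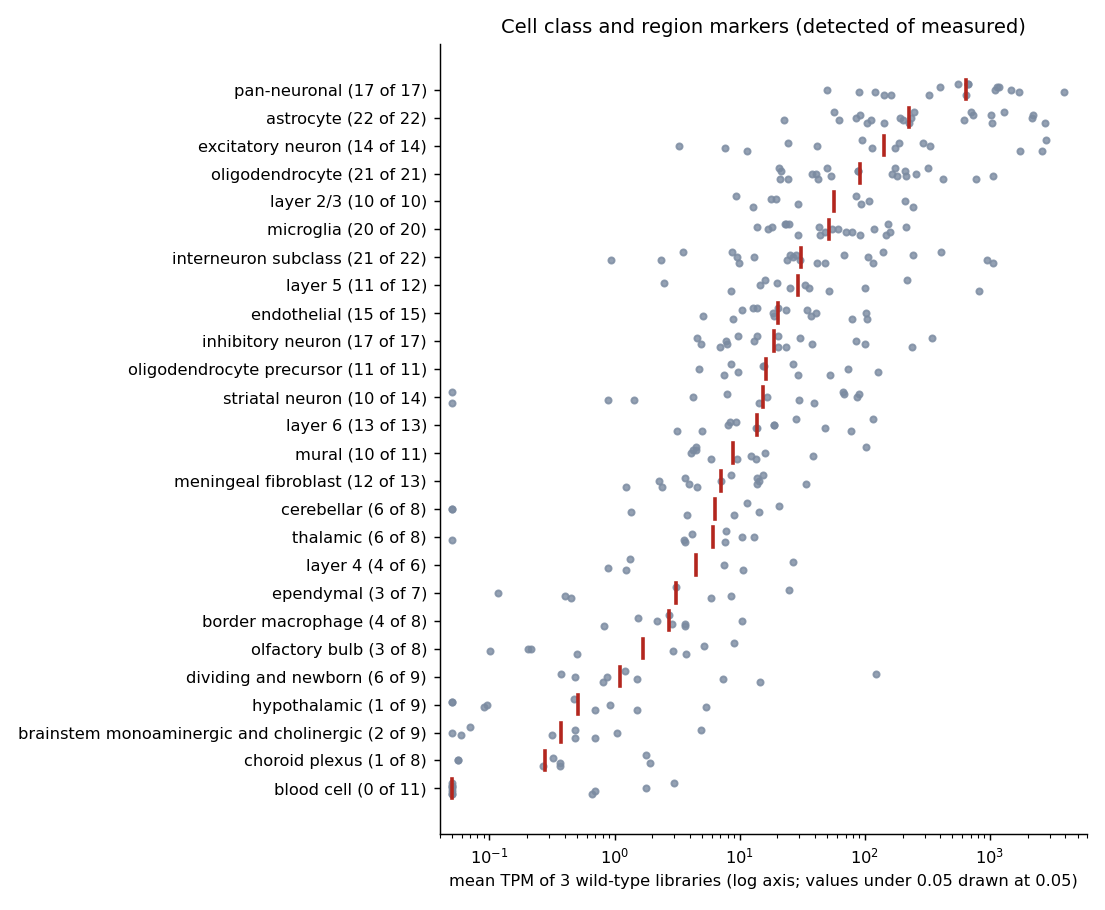
Mean TPM over the 3 wild-type libraries (log axis) of each marker gene, 1 grey point per gene, by cell class or region; red bars are list medians and brackets give detected of measured markers. Pan-neuronal, astrocyte, excitatory and oligodendrocyte markers have the highest medians, and choroid plexus and blood cell markers lie at or near 0.

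The 3 libraries were close but not equal. Pearson's r of log2 CPM across detected genes was 0.993 between replicates 1 and 2, 0.986 between 1 and 3 and 0.989 between 2 and 3; genes are not independent replicates. The common biological coefficient of variation, the spread beyond counting error estimated by edgeR, was 10.7%. Without replicate 3 it was 6.67% and without replicate 2 it was 13.6%, so replicate 3 carried most of the spread. Of the 9850 genes at 10 CPM or more in every library, 132 were more than 1.5-fold above the mean of the other libraries in replicate 3 and 42 were below by as much. In replicate 1 the numbers were 1 and 85, and in replicate 2 they were 4 and 6.

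Several marker lists differed as a group between libraries. Replicate 1 was below the mean of the other libraries for 21 of 21 oligodendrocyte markers, with a median log2 ratio of -0.71 in CPM, against -0.04 over all detected genes, of which 57.4% were below. It was also below for 11 of 11 oligodendrocyte precursor markers (median -0.47) and 20 of 20 microglia markers (median -0.33). The strongest drops at 10 CPM or more, named after their values were seen, were in Ermn and Ugt8a, a myelin structural gene and a myelin lipid enzyme, at 32.7, 72.6 and 57.9 CPM and 42, 83.3 and 78.2 CPM. Gfap, the astrocyte filament, had 65.8, 103 and 144 CPM. Replicate 3 was above the mean of the others for 22 of 22 astrocyte markers (median 0.47), 18 of 20 microglia markers (0.44) and 14 of 15 endothelial markers (0.27). It was also above for 21 of 21 oligodendrocyte markers (0.32), but replicate 2 was likewise above for 20 of 21 (0.30). For that list replicate 3 did not stand apart from replicate 2, and replicate 1 was the low library. Over all detected genes the median for replicate 3 was 0.05, and 57.3% were above. In the same library 14 of 17 pan-neuronal markers (-0.27), 22 of 23 vesicle release genes (-0.26) and 15 of 16 glycolysis genes (-0.23) were below, as were 42.7% of all detected genes. Other neuronal lists were not alike there. Medians were -0.24 for excitatory, -0.28 for layer 5 and -0.22 for layer 6 markers. Inhibitory neuron markers were above for 15 of 17 (0.27), interneuron subclass markers for 16 of 21 (0.14) and layer 2/3 markers for 9 of 10 (0.14). With scaling by the trimmed mean of M values these medians kept their sign, with 21 of 22 astrocyte markers above in replicate 3 and 19 of 20 microglia markers below in replicate 1. Cell make-up, dissection and RNA handling cannot be told apart here, and their part in these differences was not tested.

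**Figure D5:**
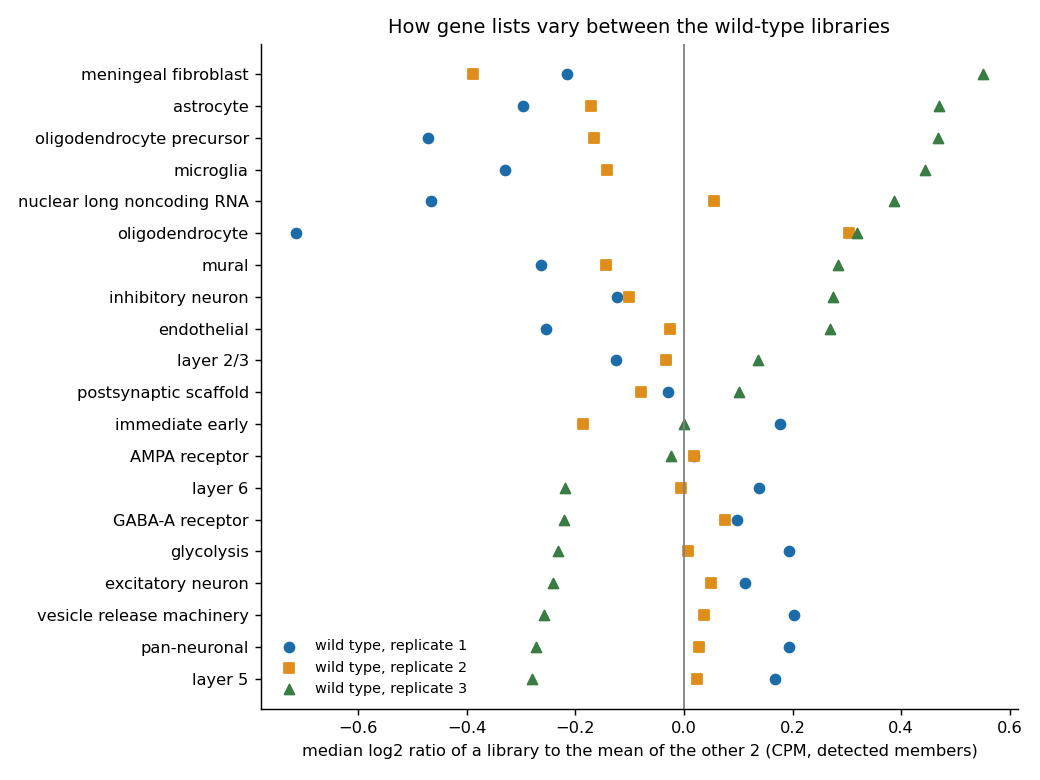
Median log2 ratio (CPM) of each library to the mean of the other 2, over the detected members of 20 lists. Replicate 1 is lowest for oligodendrocyte markers at -0.71, where replicates 2 and 3 lie close together at 0.30 and 0.32. Replicate 3 is above 0 for glial, vascular and meningeal lists, and for inhibitory neuron and layer 2/3 markers. It is under 0 for pan-neuronal, excitatory, layer 5, vesicle release and glycolysis genes.

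The 12 genes named as most variable were mostly highest in replicate 3. Among genes with a mean of at least 10 CPM, the inducible heat shock gene Hspa1b had the largest biological coefficient of variation, 41.5%, at 4.07, 9.26 and 24.1 CPM. Another stress-inducible chaperone, Hspb1, had 5.56, 11.1 and 16.3 CPM, and Myoc, a secreted protein of eye and glia, 9.88, 11.5 and 27.4 CPM. All 3 genes were highest in replicate 3. Sall3, Evi2a, Ptpn14, Papss2, Tnfrsf25, Fmod, Btg2 and Col23a1 were also highest in replicate 3, at 15.5 to 23.1 CPM there, and Dkkl1 was lowest there at 22.5, 24.1 and 10.4 CPM. These coefficients are drawn toward the trend over all genes and so understate the spread of the most variable genes. At the other end, among genes with a mean of at least 100 CPM, Nr3c1 had the lowest biological coefficient of variation, 7.75%, at 121, 121 and 121 CPM. Ppm1b, Abi1, Rab3gap2, Ube2h, Arl5a, Ncoa2, Eif2s3x, Ppm1f, Dhx9, Cdh2 and Eef1b2 followed, each with a standard deviation under 1% of its mean, which is less than counting error alone would give for 3 such counts.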

How the data were processed

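Poly(A) RNA of prefrontal cortex was sequenced, and the 3 wild-type libraries were analysed. Each deposited table holds unnormalized whole-number counts for 1 library, by gene symbol. Per the submitters' processing notes, bcl2fastq 2.17.1.14, TopHat2 2.1.1 and HTSeq 0.6.1 were used with the mm10 (GRCm38) build. Neither the annotation nor the strand setting behind the counts is given in the sources used here, so overlapping genes on opposite strands can mix. The 5 summary entries per table were left out: 32.4% to 35.3% of tallied alignments lay on genes, 48.9% to 49.3% on no feature and 15.5% to 18.1% were not unique. Counts were scaled to CPM of gene reads. TPM used the summed exon length of GENCODE M21 for 24028 symbols, 23384 matched directly and 644 through a RefSeq synonym, and 393 had none. A count of 3 equals 0.226 to 0.249 CPM. Entries for microRNAs and other short RNAs have exons shorter than a sequencing fragment, and their TPM are not used.

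Spread was estimated with edgeR 4.0.16 in R 4.3.3 (estimateDisp, robust, intercept only), tested on simulated data. DESeq2 1.42.0 size factors, TMM factors, other lengths, other thresholds and leaving out each library were alternatives. With 3 libraries of 1 group, no hypothesis test was made. Named genes are the 30 highest by TPM and 15 by CPM; receptor genes with a mean of at least 1 TPM; the 4 leading members of a list; markers at 0; the 12 most and least variable genes; and Shank3. In region and minor cell lists fewer leading members are printed. Some genes that this rule names are not reported here. The members and lists were chosen with earlier results of these data known. Figures and tables were made with Python 3.11.15, pandas 2.3.3, numpy 2.4.6 and matplotlib 3.10.9.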

Additional observations from a re-analysis of the deposited data

How the results depend on the processing

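Of 943 alternative values over 118 results, 704 stayed within 1 SD of the reported value (for counts of genes, within 1.5 times) and 239 moved, mostly with the length used. With coding length, the percent of TPM was 3.20% for ribosomal protein genes and 2.52% for oxidative phosphorylation genes; within receptors, the shares were 44.4% for Gria2, 37.6% for Grin2b, 34.3% for Grin2c, 23.0% for Grm3 and 72.0% for Chrm1; and marker medians were 111 TPM for excitatory, 19.9 TPM for inhibitory and 13.8 TPM for endothelial lists. With CPM and no length, the same family shares were 1.24% and 0.999% of counts, the receptor shares 43.99%, 40.4%, 30.8%, 19.5% and 69.3%, and medians were 27.8 CPM for inhibitory, 37.1 CPM for microglia and 24.5 CPM for endothelial lists. With transcripts linked to RefSeq, an alternative added after seeing the data, ribosomal protein genes took 4.64%, Grin2b 11.8% and Grin2c 44.3%, and the inhibitory median was 17.99 TPM. Oxidative phosphorylation genes took 3.05% with the longest transcript and 3.22% with the total without Rn45s, pseudogenes and predicted genes. The mean of a list in place of its median gave 602 TPM for excitatory, 56.8 TPM for inhibitory, 647 TPM for astrocyte, 202 TPM for oligodendrocyte, 71.5 TPM for microglia and 35.3 TPM for endothelial markers. Leaving out 1 library gave 354 of these values, of which 4 moved. A mean of 3 libraries that differ cannot shift by 1 SD when 1 library is left out. For means, staying within 1 SD here was therefore fixed in advance and is no measure of stability, also within the 704 above. The biological coefficient of variation ran from 6.67% without replicate 3 to 13.6% without replicate 2. Over the same omissions, detected genes ran from 13824 to 13965, the Gria2 share from 29.4% to 30.4% and the oligodendrocyte median from 82.9 to 105 TPM. No paired analysis was possible because 1 group is described and no test was made. At these depths 3 reads equal 0.226 to 0.249 CPM, so genes listed at 0 are shown only to lie under that level. The causes of the length dependence beyond the lengths themselves were not tested.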

Other observations

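Activity-dependent genes were well represented in these wild-type libraries. All 21 immediate early genes listed were detected, with medians of 46.7, 45.8 and 49 TPM. Arc, whose protein acts on AMPA receptor traffic, had 488, 433 and 503 TPM and Egr1, a transcription factor of recent activity, 291, 266 and 216 TPM. Fos had 73, 61.4 and 69.2 TPM and Npas4, induced by calcium entry, 23, 29.7 and 49 TPM. Replicate 3 was the highest library for Arc and Npas4 and the lowest for Egr1. Peptide precursor and granule genes had 20 of 22 members detected. After Cck and Sst, Pcsk1n and Chgb averaged 639 ± 66.2 TPM and 489 ± 72.8 TPM.

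Some large families were nearly silent. Of 1125 olfactory receptor symbols 1075 had no read and 4 were detected, with the pseudogene Olfr856-ps1 highest at 37.7, 58.4 and 71.2 TPM. Of 338 vomeronasal receptor symbols 318 had no read and 3 were detected. Of 105 keratin symbols 71 had no read, yet Krt222 and Krt12 had 40.4, 39.4 and 31.1 TPM and 31.8, 36.2 and 31.7 TPM. Nuclear noncoding RNAs had 10 of 12 detected, and Malat1, Meg3 and Snhg11 were each lowest in replicate 1, with Malat1 at 376, 426 and 608 TPM.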
